A study of Mus musculus with 6 samples.

Results

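Hepatocyte transcripts were measured in RNA from neutrophils, as a gauge of how much hepatocyte RNA came with the cells. The set holds 36 genes taken by symbol, of 53090 rows in each table. The 6 libraries came from mice fed for 1 week a diet with 3,5-diethoxycarbonyl-1,4-dihydrocollidine (DDC), which injures bile ducts and hepatocytes. Of these, 3 were liver neutrophils, pulled out with magnetic beads against Ly6G from a liver suspension after a Percoll gradient, and 3 were blood neutrophils, pulled out with the same marker after red cells were lysed. Both groups carried the DDC diet. The sources used here do not give the strain, age or sex of the mice, which mouse each library came from, or whether the liver was perfused; the series design gives 3 mice. Tissue and preparation differ together between the groups and cannot be told apart.

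Hepatocytes make most plasma proteins, among them albumin, transport proteins, apolipoproteins, fibrinogen and protease inhibitors. They also run the urea cycle, make glucose from amino acids and oxidise drugs with cytochrome P450 enzymes. In inflammation they raise acute phase proteins such as serum amyloid A and haptoglobin. Neutrophils are short-lived blood cells that are not known for most of these functions. Haptoglobin, for example, is also made in the neutrophil lineage and stored in its granules.

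Total counts ran from 13054673 to 17579669 per library. Levels are given as CPM, counts scaled to a common library size with TMM factors. At this depth 3 counts correspond to 0.18 to 0.26 CPM in a library, a floor that covers counting error only. The defining neutrophil genes were present in all 6 libraries, with S100a9 at 1724 to 2749 CPM in liver and 4168 to 10694 CPM in blood, and Cxcr2 at 462 to 716 CPM and 1704 to 1874 CPM. Ly6g, the gene of the selection marker, had 4.50 to 11.9 CPM in liver and 21.3 to 45.6 CPM in blood.

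A pair of genes in the set were abundant in all 6 libraries, and the 34 others were low, with most of their summed counts in liver 2 and liver 3. Hp, encoding haptoglobin, and Trf, encoding the iron carrier transferrin, took 56.0% to 95.8% of the counts of the set in liver and 99.1% to 99.7% in blood. Because of Hp, the whole set took a smaller share of counts in liver, 0.0872% ± 0.0154, than in blood, 0.125% ± 0.00748 (SD, n = 3 each). Without Hp and Trf the order was the opposite, with 0.0242% ± 0.0214 in liver and 0.000605% ± 0.000457 in blood. These 34 genes summed to 31.4, 250 and 407 CPM in liver 1, 2 and 3 and to 11.7, 4.21 and 2.89 CPM in blood 1, 2 and 3. Each liver library therefore lay above each blood library, but liver 1 was only 2.68-fold above blood 1, while liver 3 was 13-fold above liver 1. The liver mean of 229 CPM became 141 CPM without liver 3, and the blood mean of 6.27 CPM became 3.55 CPM without blood 1. Fewer hepatocytes and less RNA per hepatocyte cannot be told apart in such bulk libraries. How the RNA came into the preparations, and whether all of it came from hepatocytes, was not tested.

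**Figure D1:**
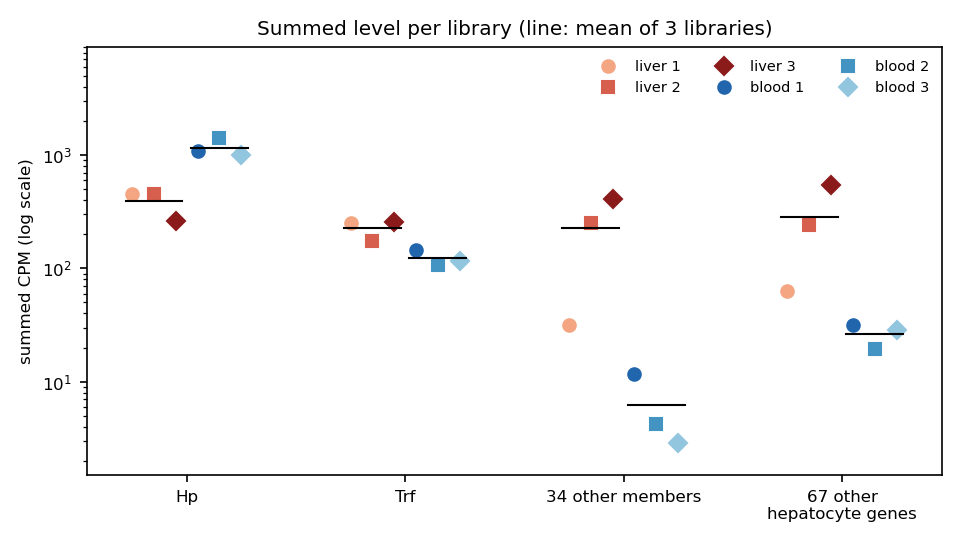
Summed CPM (log scale) in each library for Hp, for Trf, for the 34 other members of the set and for 67 further hepatocyte genes (Lrg1 left out). Points are single libraries and lines are means of 3 libraries, and Hp is lower in liver while the 34 members run from 31.4 to 407 CPM in liver and from 2.89 to 11.7 CPM in blood.

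Over single genes the libraries kept this order in most cases. Among the 34 genes, liver 1 was the lowest liver library for 33 (ties at 0 included), Orm1 being the exception, and 20 had liver 3 above liver 2 above liver 1, an order held by 16.7% of all 19145 rows with at least 10 counts. The highest library was liver 3 for 21 genes and liver 2 for 13. In 18 of the 34, and in 19 of all 36, each liver library lay above each blood library, against 23.9% of the 19145 rows, and 16 overlapped. The overlaps came from the low end of the liver group. Liver 2 lay above every blood library for 34 of 34 genes, liver 3 for 33 and liver 1 for 18. For single libraries against blood, and for the lowest or highest library, the share over all rows was not counted. Counts of 0 were found for 9 genes in liver 1, 0 in liver 2 and 1 in liver 3. In blood 1, 2 and 3 they were found for 10, 21 and 20 genes. Over all 53090 rows, detection was also higher in liver, with 19238, 20377 and 21540 genes in liver 1, 2 and 3. The blood libraries had 17822, 18013 and 18558 genes detected in blood 1, 2 and 3. Blood 1 exceeded liver 1 for 9 of the 34, among them Cyp3a11, Cyp2c29, Ahsg and Tdo2.

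**Figure D2:**
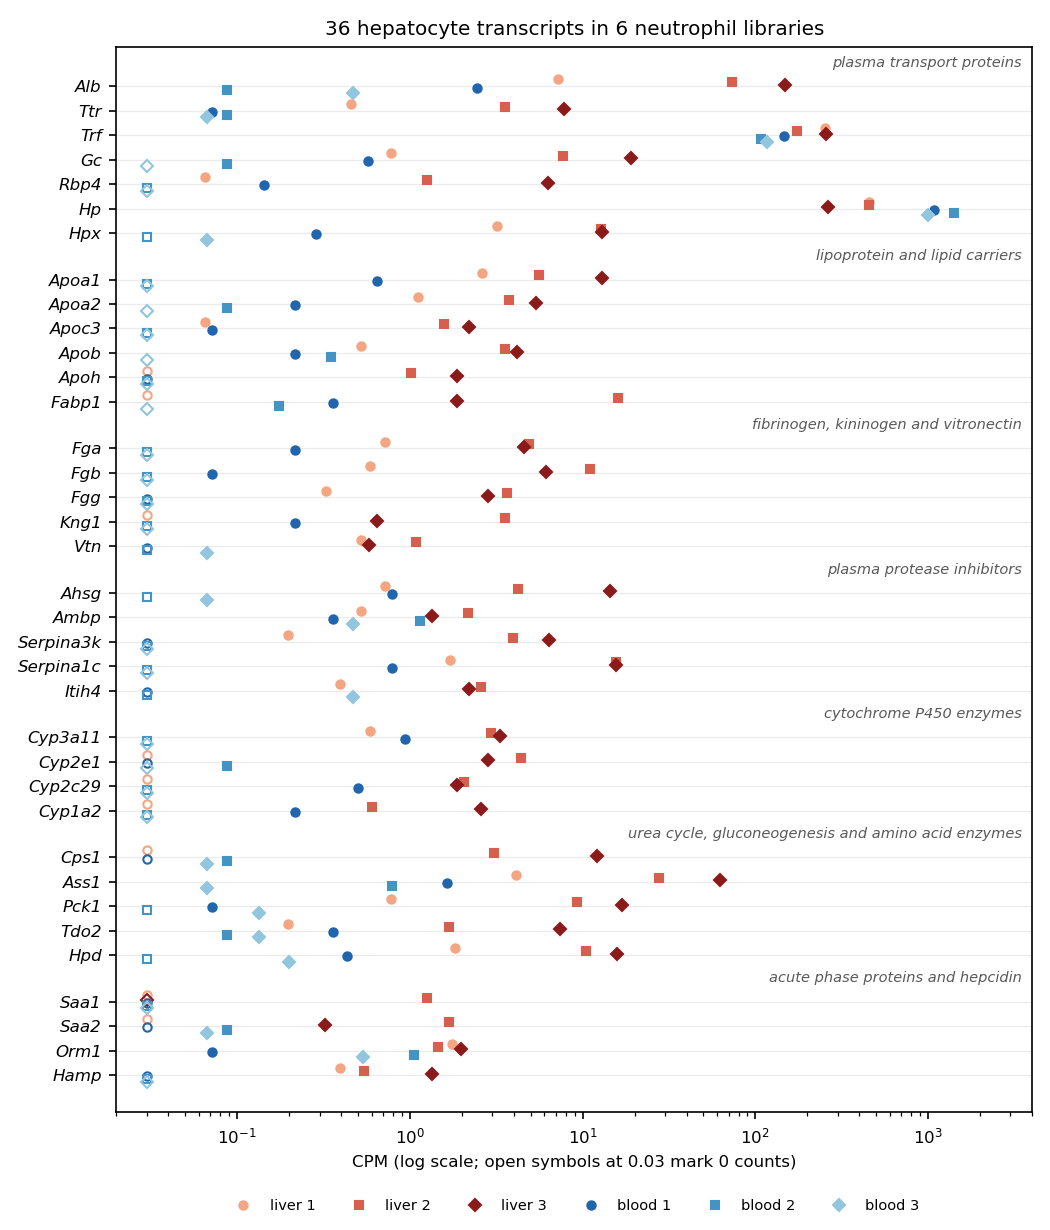
CPM (log scale) of each of the 36 genes in each of the 6 libraries, grouped by role, with open symbols at 0.03 for 0 counts. Liver 2 and liver 3 lie to the right of the blood libraries for nearly all genes, liver 1 is mostly the lowest liver library, Hp is reversed and Trf is high in all 6.

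Most of these genes were too low for the filter of the gene test. Of the 36, 16 passed and 20 did not. Only Hp and Trf reached the filter level, 0.710 CPM in each library, in the blood group as well, and 12 others passed through liver alone, so their number of calls supports nothing. Ambp and Cyp3a11 passed with 2 liver libraries and 1 blood library. In edgeR's quasi-likelihood test with Benjamini-Hochberg adjustment over 13458 genes, 12 of the 16 were called higher in liver, where 17.4% of all genes were, 1 was called lower, where 14.2% were, and 3 were not called. With every row of at least 1 count tested, 27 of the 36 were called higher and 1 lower, against 11.3% and 8.33% of 26614 genes. The median log2 fold change of the 36 was then 5.25, and that of all genes was 0.42. For the 36 it was 4.94 with blood set to 3 counts for the 5 genes at 0 there. The number called higher among tested genes was 6 of 15 without liver 2 and 23 of 30 without liver 1, the liver library lowest in these genes.

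Some genes of the set can be placed beside their promoters, but Hp and Trf are among the 8 without a promoter window. RefSeq windows for GRCm38.p6, from 250 bases before to 50 bases after a gene's start, were at hand for 28 of the 36 genes, in 30 windows. The word GTTAATNAT, which resembles the binding site of the hepatocyte factor HNF1, was searched on both strands and was found in 3 of 30 windows, against 0.801% of 32851 windows. The word TTGCNNAA, of the C/EBP type, was found in 11 of 30 windows, against 10.8% of all, and TTCCNGGAA, of the STAT type, in 1 of 30, against 1.15%. A match is a run of letters and no proof of binding. The 3 genes with the first word were Alb, Gc and Fga. The 140 bases just upstream of the RefSeq start are shown for Alb, at chr5:90460730-90460869 on the plus strand, and Gc, at chr5:89457899-89458038 on the minus strand, 2 of the members that carry that word. Those of Fga are not shown because they overlap its GENCODE gene model. They are read 5′ to 3′ on the gene's strand with the word in capitals.
Alb: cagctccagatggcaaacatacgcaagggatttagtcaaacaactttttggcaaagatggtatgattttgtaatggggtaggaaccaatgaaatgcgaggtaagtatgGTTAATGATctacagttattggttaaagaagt
Gc: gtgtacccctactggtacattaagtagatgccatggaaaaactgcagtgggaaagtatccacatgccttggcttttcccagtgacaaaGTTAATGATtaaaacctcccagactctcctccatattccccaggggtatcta
The word began 32 bases before the start in Alb, 52 in Gc and 46 in Fga. Alb, Gc and Fga were all higher in each liver library than in each blood library, with the values given below.

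Of the plasma transport proteins, Alb, encoding albumin (protein-coding, chromosome 5, 90460897 to 90476602, GRCm38), was the most abundant of the 34 genes. Alb had 7.25, 73.2 and 148 CPM in liver 1, 2 and 3 and 2.44, 0.0876 and 0.470 CPM in blood 1, 2 and 3. The groups did not overlap, but liver 1 had 0.0489 of the level of liver 3, and the liver mean was 76.2 ± 70.6 CPM (SD, n = 3). The log2 fold change was 6.21 ± 1.51 (SE), with an adjusted p of 0.0297 by edgeR. Leaving out any of liver 2, liver 3, blood 2 and blood 3 ended the call (adjusted p 0.0663 to 0.1), as did testing without the low-count filter (0.105). Hpx, encoding the heme scavenger hemopexin, had 3.20, 12.8 and 13 CPM in liver and 0.287, 0 and 0.0671 CPM in blood. Its log2 fold change of 6.20 ± 0.88 kept its call without any single library (adjusted p 0.00189 to 0.00563 by edgeR), although only 5 counts lay in blood. Gc, encoding the vitamin D binding protein, had 0.783, 7.71 and 19.2 CPM in liver and 0.575, 0.0876 and 0 CPM in blood, so liver 1 and blood 1 nearly met. The Gc call (log2 fold change 5.32 ± 1.41) was lost without liver 2, liver 3, blood 2 or blood 3 (edgeR adjusted p 0.0558 to 0.107). Ttr and Rbp4, which together carry thyroxine and retinol, had 188 and 120 counts in liver and 3 and 2 in blood. Ttr had 0.457, 3.55 and 7.85 CPM in liver, all above its highest blood value of 0.0876 CPM, while Rbp4, at 0.0653, 1.26 and 6.30 CPM, was lower in liver 1 than in blood 1. Their pooled ratios were 53.1 (95% exact interval 17.9 to 260) and 50.8 (13.8 to 425), intervals that cover counting error only.

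Hp and Trf did not share that pattern. Hp (chromosome 8, 109575128 to 109579172, GRCm38) had 455, 453 and 262 CPM in liver 1, 2 and 3 and 1078, 1413 and 997 CPM in blood 1, 2 and 3. Every liver library was below every blood library, as for 17.3% of the 19145 rows, and liver 3, the library richest in the 34 other genes, had the lowest Hp. The log2 fold change was -1.58 ± 0.27, with an adjusted p of 0.00283 by edgeR, 0.00521 to 0.0108 without any 1 library. Neutrophil genes were lower in liver beside it, Cxcr2 by -1.60 ± 0.23 and S100a9 by -1.70 ± 0.37 on the log2 scale, and their part in the Hp result was not tested. Trf (chromosome 9, 103204001 to 103230444) had 254, 175 and 255 CPM in liver and 146, 108 and 117 CPM in blood. Liver 1, the poorest in the 34 genes, was level with liver 3, at a ratio of 0.996 (95% exact interval 0.952 to 1.04). Its log2 fold change of 0.89 ± 0.21 had an adjusted p of 0.0127 by edgeR, and 0.0501 without liver 1 and 0.0515 without blood 3. Per kb of annotated exon, Hp reached a mean of 243 CPM in liver and Trf 68.8, against 32.5 for Alb and 13 for Ass1, the top pair of the 34.

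Lipoprotein and lipid carriers were present at low levels. Apoa1 and Apoa2, the main proteins of high-density lipoprotein, had 2.61, 5.60 and 12.9 CPM and 1.11, 3.73 and 5.40 CPM in liver 1, 2 and 3. In blood, Apoa1 had 0.647 CPM in blood 1 and 0 in blood 2 and 3, and Apoa2 had 0.216, 0.0876 and 0 CPM. Neither gene overlapped between groups. Their log2 fold changes were 4.94 ± 1.15 and 4.98 ± 0.98, and both calls held without any single library (edgeR adjusted p up to 0.0424 and 0.0217). Without blood 1 no Apoa1 count is left in blood, so the fitted 9.68 is no size. Apob, the scaffold of very-low-density lipoprotein, had 132 counts in liver and 7 in blood, a pooled ratio of 16.0 (7.54 to 40.5). Apoc3, an inhibitor of lipoprotein lipase, had 61 counts and 1 count, and liver 1 was below blood 1, each with 1 count. Apoh had 0, 17 and 29 counts in liver and 0 in blood, at least 13-fold higher if blood is set to 3 counts in all. Such folds, here and below, take the liver count as exact and leave out its counting error. Fabp1, the fatty acid binding protein of hepatocytes and enterocytes, had 0, 266 and 29 counts in liver and 5, 2 and 0 in blood, so 1 liver library held most of its reads.

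Fibrinogen is built from the products of Fga, Fgb and Fgg, which lie next to one another on chromosome 3. Fga passed the filter, with 0.718, 4.88 and 4.57 CPM in liver and 0.216, 0 and 0 CPM in blood. Its log2 fold change was 5.36 ± 1.16 with an adjusted p of 0.00818 by edgeR, 0.00769 to 0.0290 when any library but liver 2 was left out (without liver 2 it was not tested). Fgb had 9, 185 and 96 counts in liver and 1 in blood, a ratio of 246 (43.8 to 9738), and Fgg had 5, 61 and 44 and 0, at least 31.1-fold higher. The 3 chains thus had liver 2 highest and liver 1 lowest. Kng1, encoding kininogen, had 0, 59 and 10 counts in liver and 3 in blood. Vtn, encoding vitronectin, had 8, 18 and 9 counts in liver and 1 in blood, and liver 1 and liver 3 were nearly alike.

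Among protease inhibitors, Serpina1c, an alpha-1 antitrypsin gene, had 1.70, 15.7 and 15.6 CPM in liver and 0.791, 0 and 0 CPM in blood. Its deposited counts were not whole in 5 libraries, since reads were split by estimate with near-identical copies, so the level of this copy is uncertain. The log2 fold change of 5.30 ± 1.35 lost its call without liver 2, liver 3, blood 2 or blood 3 (edgeR adjusted p 0.0536 to 0.0769). Ahsg, encoding fetuin-A, had 0.718, 4.22 and 14.4 CPM in liver and 0.791, 0 and 0.0671 CPM in blood. Blood 1 was above liver 1, so the groups overlapped, and the call at a log2 fold change of 4.42 ± 1.37 was lost without the same 4 libraries (edgeR adjusted p 0.0763 to 0.121). Serpina3k had 3, 66 and 99 counts in liver and 0 in blood, at least 47.4-fold higher, and Itih4 had 6, 43 and 34 in liver and 7 in blood, all in blood 3. Ambp, which encodes a precursor of bikunin and alpha-1-microglobulin, had 0.522, 2.17 and 1.35 CPM in liver and 0.359, 1.14 and 0.470 CPM in blood. Here the groups overlapped widely and the log2 fold change of 1.05 ± 0.77 was not called (adjusted p = 0.322 by edgeR).

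Cytochrome P450 enzymes, which oxidise drugs, steroids and fatty acids, were near the floor. Cyp3a11 had 0.587, 2.95 and 3.34 CPM in liver and 0.934, 0 and 0 CPM in blood, and blood 1 exceeded liver 1. Its log2 fold change of 2.82 ± 1.27 was not called (adjusted p = 0.120 by edgeR), but 2.81 ± 0.87 was called without the low-count filter (0.0096). It was also called without blood 1, at 8.07 (0.0149), when no count was left in blood. Cyp2c29 had 0, 34 and 29 counts in liver and 7 in blood, all in blood 1. Cyp2e1 had 0, 73 and 44 counts in liver and 1 in blood, and Cyp1a2 0, 10 and 40 in liver and 3 in blood. Liver 1 therefore had no read of Cyp2e1, Cyp2c29 or Cyp1a2, which allows up to 0.20 CPM for each.

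Metabolic enzymes gave some of the widest gaps. Ass1, an enzyme of the urea cycle, had 4.11, 27.7 and 62.6 CPM in liver and 1.65, 0.789 and 0.0671 CPM in blood. The groups did not overlap, and the log2 fold change of 5.23 ± 1.28 had an adjusted p of 0.0254 by edgeR, lost without liver 2, blood 2 or blood 3 (0.0569 to 0.101) and without the low-count filter (0.12). Pck1, which starts gluconeogenesis from oxaloacetate, had 0.783, 9.27 and 17.0 CPM in liver and 0.0719, 0 and 0.134 CPM in blood. With 3 counts in blood, its pooled ratio was 121 (41.3 to 591), and its log2 fold change of 6.78 ± 1.3 was called without any 1 library (edgeR adjusted p 0.00124 to 0.0337). Hpd, an enzyme of tyrosine breakdown, had 1.83, 10.4 and 15.8 CPM in liver and 0.431, 0 and 0.201 CPM in blood. Its log2 fold change of 5.36 ± 1.02 was also called without any 1 library (edgeR adjusted p 0.00304 to 0.0246). Cps1, the first urea cycle enzyme, had 0, 51 and 188 counts in liver and 2 in blood, and Tdo2, which opens the tryptophan ring, 3, 28 and 115 in liver and 8 in blood.

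**Figure D3:**
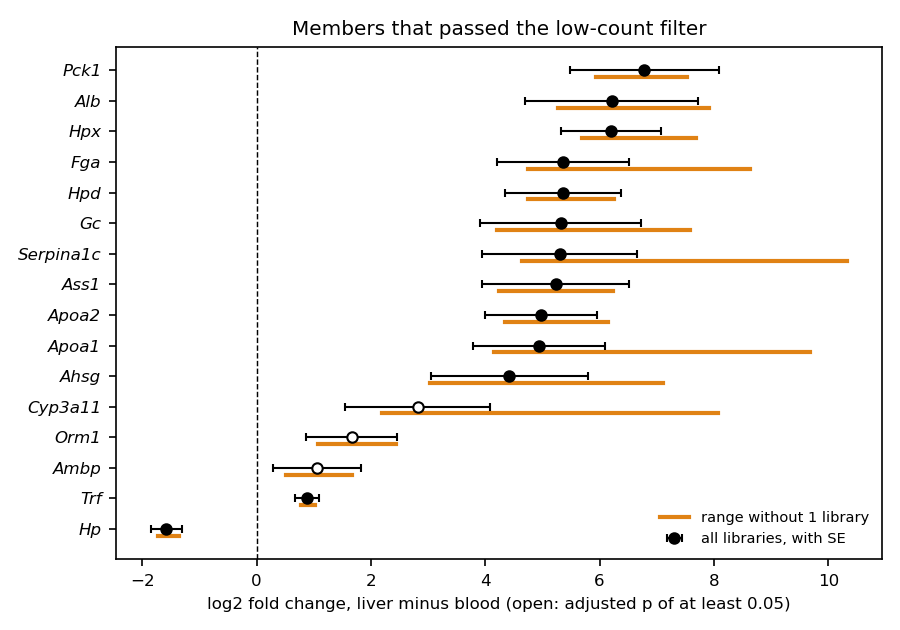
Log2 fold change of liver over blood for the 16 genes that passed the filter, with SE bars, open points for those not called, and bars for the range when 1 library is left out. Hp is the only gene below 0, at -1.58, Trf is at 0.89, and ranges that reach past 8 were fitted against 0 counts in blood.

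Of acute phase genes other than Hp, and of the hepcidin gene, few reads were found. Saa1 had 21 counts, all in liver 2, and Saa2 had 28 counts in liver 2, 5 in liver 3 and 2 in blood. They are close copies among the serum amyloid A genes. Their deposited counts were whole in every library, so no split by estimate shows, but how reads were assigned between them stays uncertain. Hamp, encoding the iron hormone hepcidin, had 6, 9 and 21 counts in liver and 0 in blood, at least 10.2-fold higher. Orm1, encoding orosomucoid, had 1.76, 1.45 and 1.99 CPM in liver and 0.0719, 1.05 and 0.537 CPM in blood. The liver libraries were alike for Orm1, with liver 1 at 0.884 of liver 3 (95% exact interval 0.508 to 1.53), where Alb was at 0.0489 (0.0400 to 0.0591). All liver values of Orm1 exceeded all blood values, but its log2 fold change of 1.66 ± 0.80 was not called (adjusted p = 0.141 by edgeR).

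The ratio of liver 3 to liver 2 was not the same for all of the 34 genes. Summed over the 34 genes, liver 3 had 1.63 times the level of liver 2, with a median over genes of 1.39. The ratio was above 1 beyond its counting interval for 15 genes, below 1 for 6 and neither for 13. At the upper end were Rbp4 at 4.98 (95% exact interval 3.09 to 8.41), Tdo2 at 4.39 (2.88 to 6.89), Cyp1a2 at 4.27 (2.10 to 9.58) and Cps1 at 3.94 (2.88 to 5.48). At the lower end were Fabp1 at 0.116 (0.0765 to 0.171), Kng1 at 0.181 (0.0826 to 0.357), Saa2 at 0.191 (0.0575 to 0.5) and Fgb at 0.554 (0.429 to 0.713), with Saa1 at 0 in liver 3. Cyp2e1 was also below 1, at 0.644 (0.432 to 0.948). These intervals compare 2 libraries and cover counting error only, so they say nothing of conditions. Libraries of a group differed by more than sampling noise over all genes (chi-square per degree of freedom 52.1 to 79.0). The share of all rows beyond such an interval was not counted, so these numbers are not particular to hepatocyte genes. Alb took 23.1%, 29.3% and 36.4% of the counts of the 34 genes in liver 1, 2 and 3, and Hpx 10.2%, 5.11% and 3.19%.

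**Figure D4:**
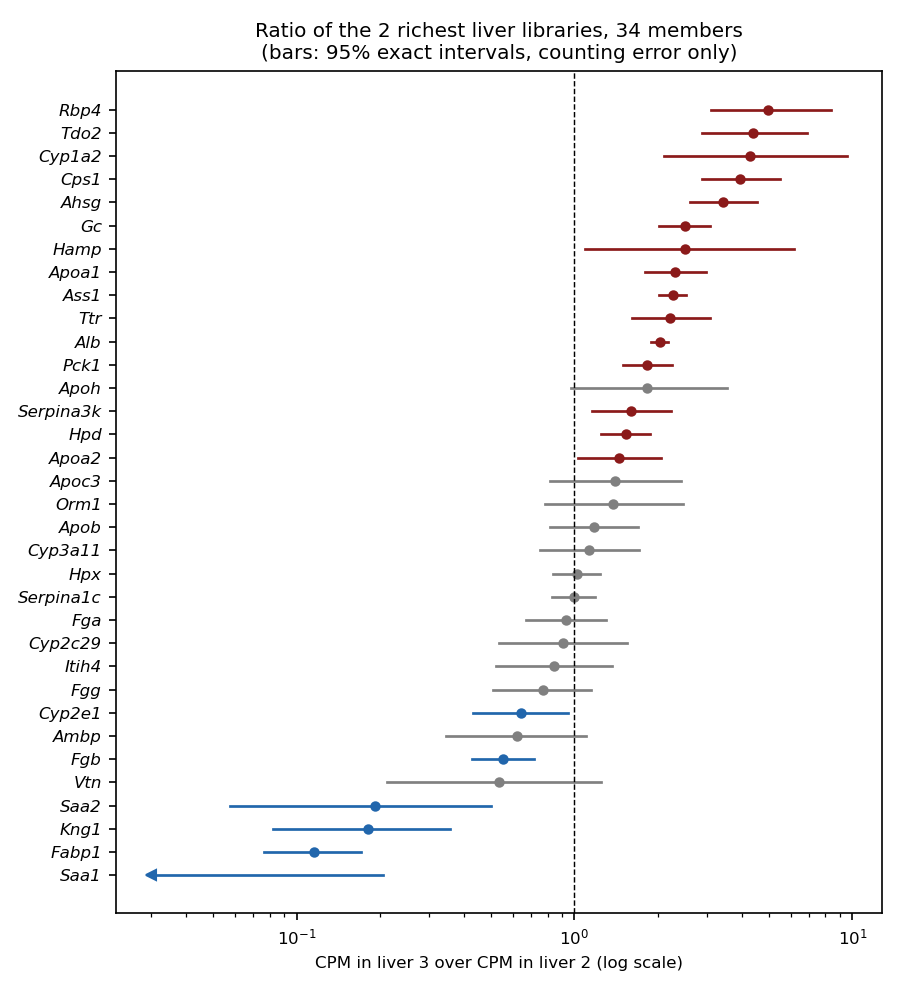
CPM in liver 3 over CPM in liver 2 (log scale) for the 34 genes, with 95% exact intervals for counting error, in red above 1, in blue below 1 and in grey where the interval holds 1. The ratios run from 0 for Saa1 (arrow) and 0.116 for Fabp1 to 4.98 for Rbp4.

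As a sum, a further 68 hepatocyte genes outside the set were higher in liver only without Lrg1, a choice that was not planned. Summed over all 68, the mean was 492 CPM in liver and 679 CPM in blood, and the groups overlapped. Of the 68, 18 passed the filter, and edgeR called 9 higher, where 17.4% of all genes were, and 1 lower, where 14.2% were. It did not call 8. Genes such as Arg1, with 3 counts in blood, passed through liver alone, so this number of calls supports nothing. A total of 30 genes had 0 counts over blood, and the share of all rows at 0 was not counted. Without Lrg1, a glycoprotein gene at 78.5 to 365 CPM in liver and 351 to 1104 CPM in blood, the other 67 summed to 63.4, 243 and 543 CPM in liver 1, 2 and 3 and to 31.6, 19.3 and 28.7 CPM in blood. The highest library was liver 3 for 45 of the 68 and liver 2 for 16, and the shares over all rows were not counted. Arg1, the arginase of the urea cycle, had 2.74, 22.8 and 30.6 CPM in liver and 3 counts in blood, with a log2 fold change of 7.83 ± 1.28 (adjusted p = 0.00414 by edgeR). Serpina1b, Apoc1 and Cyp27a1 were called higher as well, at 7.01 ± 1.42, 3.71 ± 0.61 and 3.67 ± 0.82. Asl, Tat and Cdo1 were not called, at 0.81 ± 0.37, 3.87 ± 1.31 and 3.74 ± 1.37 (adjusted p 0.123, 0.0648 and 0.0786). The ratio of liver 3 to liver 2 was above 1 beyond counting error for 32 of the 68, such as Mat1a at 4.78 (4.08 to 5.64) and Bhmt at 4.34 (3.84 to 4.91), and below 1 for 9, such as C9 at 0.196 (0.0847 to 0.404). Here too the share of all rows beyond counting error was not counted.

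Of 14 transcription factors of hepatocytes, 3 passed the filter. Hnf4a and Nr1i3 were called higher by edgeR, as were 17.4% of all genes tested. Hnf4a and Nr1i3 passed through liver alone, so this number of calls supports nothing. Both also count among the 68. Hnf4a, a nuclear receptor that maintains hepatocyte identity, had 2.35, 9.76 and 17.1 CPM in liver and 0 counts in blood, at least 131-fold higher. Nr1i3, a nuclear receptor that senses foreign compounds, had 1.57, 1.93 and 1.87 CPM in liver and 1 count in blood, so the liver libraries were alike. Cebpa, which myeloid cells share with hepatocytes, had 18.4 to 36 CPM in liver and 27.6 to 46.3 CPM in blood and was not called.

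Markers of other cells were counted beside the hepatocyte genes. Over all 13458 genes tested, 17.4% were called higher in liver and 14.2% lower. The marker lists are short and were not tested as sets. Sinusoidal endothelial markers summed to 243, 221 and 233 CPM in liver 1, 2 and 3 and to 67.8 to 110 CPM in blood, with 6 of 8 tested called higher and 1 lower, mostly from Stab1 and Fcgr2b. Stellate cell and fibroblast markers summed to 5.03, 6.02 and 6.24 CPM in liver and 0.175 to 1.61 CPM in blood, mostly from Col1a1 and Pdgfrb. Monocyte markers, 4 of 7 called higher, summed to 1174 to 1912 CPM in liver and 454 to 694 CPM in blood, led by Fn1 and Csf1r. Neutrophil markers, 10 of 15 called lower and 1 higher, summed to 9798 to 16954 CPM in liver and 24383 to 35785 CPM in blood, led by Csf3r and S100a9. Kupffer cell and macrophage markers, 5 of 13 tested called higher and 1 lower, summed to 762 to 1190 CPM in liver and 1101 to 1210 CPM in blood, mostly from Slc40a1 and Csf1r. Clec4f, confined to Kupffer cells among liver cells, had 17.0, 5.12 and 59.8 CPM in liver and 0.359, 0 and 0 CPM in blood. Liver 3 was thus highest for Clec4f as for Alb, but liver 1 and liver 2 were in the other order. Biliary markers summed to 78.2 to 141 CPM in liver and 97.5 to 208 CPM in blood. Of these, Spp1 had 43 to 68.3 CPM in liver and 1.61 to 2.72 CPM in blood, while Krt19 had 1.11 CPM in liver 1 and 0 in the other 5. Blood 1, the highest blood library for the 34 genes, was also the highest for platelet markers, at 239 CPM against 46.0 and 75.1 CPM, and for erythroid markers, at 33698 CPM against 367 and 14773 CPM. The part of any of these cells in the hepatocyte values was not tested.

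**Figure D5:**
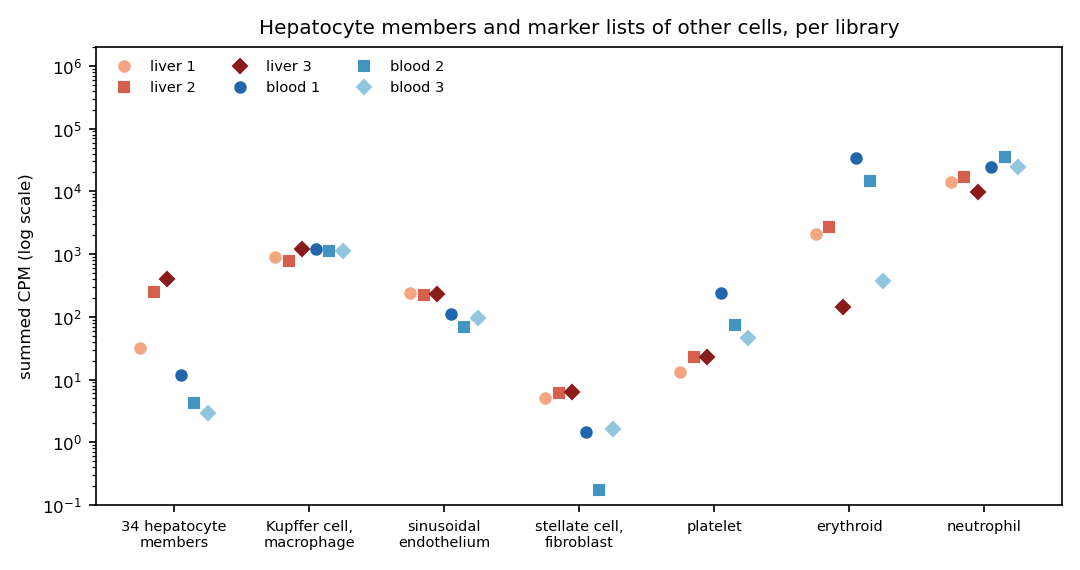
Summed CPM (log scale) in each library for the 34 hepatocyte genes and for marker lists of 6 other cell types. Hepatocyte genes spread from 31.4 to 407 CPM over the liver libraries and from 2.89 to 11.7 CPM in blood. Endothelial markers stay between 221 and 243 CPM in liver and between 67.8 and 110 CPM in blood.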

How the data were processed

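RNA was sequenced from 3 liver and 3 blood neutrophil samples as stranded total-RNA libraries from a low-input kit, per the labels' protocols. The authors deposited expected counts per gene, estimated with RSEM after STAR alignment to GRCm38. These names come from the submitters' processing notes, as do FastQC 0.11.5 and limma. Aligner and counter versions, annotation and strand setting were not given in the sources used here, and overlapping or antisense genes cannot be told apart.

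Counts were rounded. The 36 genes were taken by symbol, with the row of largest summed count where a symbol repeats (213 symbols, none of these). Coordinates and exon lengths came from GENCODE release 21 for mouse (GRCm38), matching 98.9% of rows by identifier. Genes were filtered (filterByExpr, minimum count 10, minimum total 15), TMM-scaled and tested, liver against blood, with a robust quasi-likelihood test in edgeR 4.0.16 (R 4.3.3), adjusted by Benjamini-Hochberg and called at 0.05. The SE comes from the F statistic. The test was checked on simulated data. Exact intervals are at 95% (scipy 1.17.1). DESeq2 1.42.0 and other settings served as alternatives. Every gene of the set is accounted for. Further hepatocyte genes named are the 10 tested with the highest liver mean, except for items not reported here, and those named from ratios or for being tied to a cell type were chosen after their values were seen. The members and lists were chosen with earlier results of these data known. Libraries of a group differed by more than sampling noise (chi-square per degree of freedom 52.1 to 79.0). The series design gives 3 mice but not how libraries map to them, and the p-values then reflect only how far these libraries differ, which may be technical.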

Additional observations from a re-analysis of the deposited data

How the results depend on the processing

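Hp was called lower in all 15 alternatives, and none of the 16 tested genes of the set changed sign. Of 228 values for the 16 tested genes, 195 kept their side of the threshold, 31 lost a call and 2 gained one. Of the 13 called genes, 6 (Hp, Hpx, Apoa2, Fga, Pck1 and Hpd) kept the call in every alternative that tested them. The number of the set called higher, 12 of 16, was 27 of 36 without the low-count filter, 25 of 36 with DESeq2 and 5 of 6 at a minimum count of 30, settings that change how many genes are tested. It was 6 to 23 when 1 library, or liver 3 and blood 1 together, were left out. The further hepatocyte genes called higher, 9 of 18, were 31 of 68, 32 of 68 and 5 of 9 under the first 3 settings, and 7 to 32 with libraries left out. All genes called lower, 1916, ranged from 1195 to 1626 with libraries left out, and those called higher, 2336, from 1631 to 1993.

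With the replicate number as a block, 6 of the set were called higher and 1 lower. Alb, Gc, Apoa1, Ahsg, Serpina1c and Ass1 were not called there (adjusted p 0.0541 to 0.167). Whether a number marks a mouse is not known. Deviations of same-numbered libraries correlated at 0.0431, 0.135 and 0.00866, and liver 3 correlated best with blood 1. With 3 libraries per group such correlations cannot show whether libraries are pairs, so pairing stays unknown and the main fit has none. The share of counts of the set, 0.0872% in liver and 0.125% in blood, was 0.0479% and 0.0127% without Hp, and 0.0206% and 0.000469% without Hp, Trf, Ass1, Orm1, Saa1 and Saa2. Without Hp and Trf, a choice made after seeing the data, it was 0.0242% and 0.000605%. With mitochondrial genes and 2 ribosomal models out of the total, liver had 0.1% and blood 0.132%. Left-out replicates gave 0.0787% to 0.0936% in liver and 0.121% to 0.128% in blood. Depth limits all genes with under 10 counts in blood, 27 of 36 with at most 10, whose folds are uncertain in size.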
